A study of Mus musculus with 20 samples.

Results

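Enteroendocrine cells are the hormone-secreting cells scattered through the gut epithelium, and 10 genes that mark them were followed across the colon libraries of this study. The members were chosen by name: the granule proteins Chga and Chgb, the peptide hormones Gcg, Pyy, Insl5, Sct, Nts and Cck, the serotonin enzyme Tph1, and the transcription factor Neurod1. All 10 were found in both deposited count tables, among 56748 genes in the chow table and 31184 genes in the high fat diet (HFD) table. The study measured poly-A RNA from 20 pieces of mouse colon in 5 groups of 4. Every animal carried floxed Pcca alleles, Pcca encoding a subunit of the mitochondrial enzyme that breaks down propionyl-CoA, a product of propionate from gut bacteria. On standard chow the groups were floxed littermates labelled Pcca ff (ff), knockouts made with Villin-Cre (Vill), which is active in the intestinal epithelium, and knockouts made with Albumin-Cre (Alb), which is active in the liver. On the HFD, with 60% of its energy from fat, the groups were ff and Vill. Chow animals were 9 weeks old, and HFD animals, named as males, were 18 weeks old after 12 weeks of the diet. Food was withdrawn for 4 hours in all groups. The labels give no sex for the chow animals and do not say from which part of the colon a piece came.

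Enteroendocrine cells store peptides or serotonin in dense-core granules and release them when nutrients or microbial products reach their receptors. Subtypes are usually told apart by their hormones, and in the colon they are mainly L cells, which make the glucagon-like peptides from the Gcg transcript together with Pyy and, in the distal part, Insl5, and enterochromaffin cells, which make serotonin with Tph1. Nts, Sct and Cck are better known from the small intestine, and the mix of hormones an endocrine cell makes changes along the length of the gut. Neurod1 acts late in the endocrine lineage and binds E-box sequences in pairs with other basic helix-loop-helix proteins.

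The sequences before the starts of 5 members are printed because Nts and Sct were high in the same libraries, Insl5 and Pyy varied together, and Gcg was the only member that differed between the diets. Each is the 250 bases before a RefSeq gene start on GRCm38.p6, on the minus strand and 5′ to 3′, with E-boxes (CANNTG) in capitals. Insl5 and Pyy each have 2 such windows, of which the farther upstream is shown.
Nts: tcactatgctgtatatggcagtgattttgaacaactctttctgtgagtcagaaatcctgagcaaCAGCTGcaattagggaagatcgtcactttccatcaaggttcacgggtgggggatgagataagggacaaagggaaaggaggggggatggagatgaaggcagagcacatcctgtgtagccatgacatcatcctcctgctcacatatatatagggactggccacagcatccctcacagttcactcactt
Sct: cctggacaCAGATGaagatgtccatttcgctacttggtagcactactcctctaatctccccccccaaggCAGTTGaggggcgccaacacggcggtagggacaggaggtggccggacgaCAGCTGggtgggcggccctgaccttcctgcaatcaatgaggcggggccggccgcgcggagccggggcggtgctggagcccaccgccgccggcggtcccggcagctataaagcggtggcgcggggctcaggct
Insl5: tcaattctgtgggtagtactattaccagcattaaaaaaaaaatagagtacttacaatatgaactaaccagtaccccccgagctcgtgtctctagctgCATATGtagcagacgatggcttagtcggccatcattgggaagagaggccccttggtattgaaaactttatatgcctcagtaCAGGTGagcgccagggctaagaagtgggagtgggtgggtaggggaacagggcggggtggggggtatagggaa
Pyy: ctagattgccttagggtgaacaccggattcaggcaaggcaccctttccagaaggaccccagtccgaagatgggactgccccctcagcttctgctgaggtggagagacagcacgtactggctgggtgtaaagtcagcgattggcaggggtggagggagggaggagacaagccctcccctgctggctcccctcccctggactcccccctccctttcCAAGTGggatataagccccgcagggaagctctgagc
Gcg: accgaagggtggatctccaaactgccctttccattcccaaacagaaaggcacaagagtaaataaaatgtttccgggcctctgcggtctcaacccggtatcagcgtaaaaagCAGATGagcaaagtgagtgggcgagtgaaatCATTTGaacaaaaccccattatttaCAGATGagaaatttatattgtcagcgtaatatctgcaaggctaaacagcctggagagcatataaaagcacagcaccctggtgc
Their positions are chr10:102490419-102490668 for Nts, chr7:141279134-141279383 for Sct, chr4:103027272-103027521 for Insl5, chr11:102107833-102108082 for Pyy and chr2:62483654-62483903 for Gcg. RefSeq windows were found for all 10 members, 13 windows in all. An E-box on either strand was present in 11 of these 13 windows, and in 66.2% of 32851 windows of the same length from all genes. By gene it was present for 9 of the 10 members, Tph1 being the exception. The cyclic AMP element TGACGTCA was present only before Chgb, and in 1.55% of all windows. The sequence CAATAAA, searched on both strands as a form of the posterior Hox and Cdx site, was found before no member and in 4.2% of all windows. These matches describe the letters of the windows and nothing more.

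Library depth was 27.9 to 40.4 M reads (M stands for mega) on chow and 16.9 to 24.4 M reads on HFD. Levels are given as CPM, counts per M reads, scaled between libraries by the TMM method. Pcca, the targeted gene, was at 39.8 to 57.7 CPM in chow ff, 27.9 to 33.8 in chow Vill and 39.2 to 58.7 in chow Alb, and at 28.9 to 59.5 in HFD ff and 32.6 to 37.3 in HFD Vill. Its log2 fold change for Vill against ff was -0.67 (95% interval -1.02 to -0.33) on chow and -0.35 (-0.85 to 0.16) on HFD, and neither passed the adjusted threshold. The libraries labelled HFD ff 1 and 3 were at 28.9 and 31.1 CPM, below all 4 libraries labelled HFD Vill, so Pcca did not separate the HFD labels. Counts per gene also hold reads from outside any deleted part. The samples were whole colon pieces, which also hold tissue outside the epithelium. The part of such reads and such tissue in the Pcca values was not tested. In such bulk samples, fewer cells of a type and less RNA per cell cannot be told apart.

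5 libraries stood apart from the other 15 of the study by markers of gut position. They are named here because Nts, Sct and Insl5 did not overlap between them and the rest. They were chow ff 2, chow Vill 1, chow Alb 3, HFD ff 1 and HFD ff 3. They were picked by a list of proximal colon genes after the data were seen, so what follows about them is a description with no test. The share of all genes that did not overlap between the 5 and the other 15 was not counted, so this is not read as particular to these members. In these 5 the homeobox gene Hoxb6 was at 33.4 to 190 CPM against 0.89 to 12.3 in the other 15, the bile acid transporter Slc10a2 was at 27.1 to 501 against 0.99 to 10.6, and the transcription factor Osr2 was at 14.5 to 106 against 0.077 to 0.78. Hoxd13, a gene of the hindmost gut, was at 0 to 0.25 CPM in the 5 and at 0.36 to 153 CPM in the 15. A list of 7 genes of the proximal colon had a mean log2 CPM of 6.26 to 7.58 in the 5 and of 3.39 to 5.02 in the 15. A list of 21 small intestine genes did not overlap either, with a mean log2 CPM of 2.27 to 3.55 in the 5 and of 1.32 to 2.24 in the 15, and its summed level was 825 to 2310 CPM. Levels within that list varied widely. Lct and Apoa4 were at most at 0.42 and 0.39 CPM. Slc10a2 is on the list too, and Fabp2 averaged 286 CPM on chow and 266 CPM on HFD, Apob 112 and 242 CPM, and Sis 7.99 and 17.3 CPM. The upper intestinal hormone gene Gip was at most at 0.056 CPM. Whether a piece held small intestine tissue was not tested. The summed level of 14 epithelial markers was 10941 to 20388 CPM over all libraries. Of 14 pancreatic genes, Cela1 had 1613 to 16428 reads and Ppy 45 to 293 reads in each chow library, Ins1, Ins2, Prss1 and Try4 had none in any, and the other 8 had 0 to 18.

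**Figure D1:**
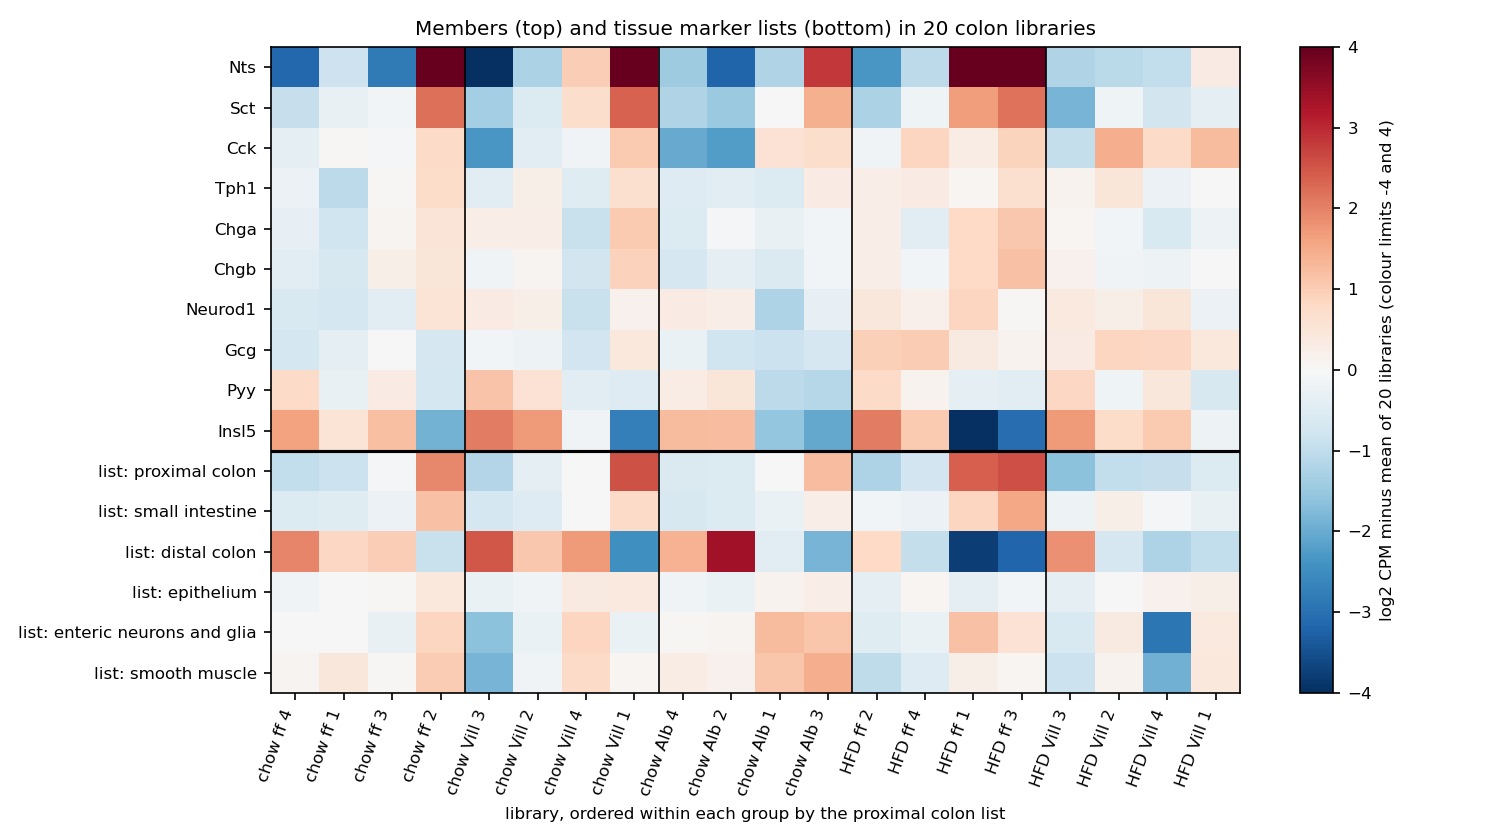
Level of each member (rows above the line) and of 6 tissue marker lists (rows below it) in the 20 libraries, as log2 CPM minus the mean of the row. Libraries are ordered within each group by the proximal colon list. Nts and Sct were high, and Insl5 was low, in chow ff 2, Vill 1 and Alb 3 and in HFD ff 1 and 3, where the proximal colon list was at 6.26 to 7.58 and no other library was above 5.02.

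Per kilobase of gene model, the order of the members by their median over 20 libraries was Insl5 at 78.6 CPM per kb, Pyy at 71.1, Chgb at 37.1, Gcg at 24.1, Chga at 23.6, Sct at 4.96, Tph1 at 3.92, Neurod1 at 1.30, Cck at 0.861 and Nts at 0.371. Insl5 was above Pyy in only 10 of 20 libraries, Gcg above Chga in 9, Sct above Tph1 in 12, Neurod1 above Cck in 11 and Cck above Nts in 13, so these neighbours could not be ordered beyond their spread. Chga was above Sct, and Tph1 above Neurod1, in all 20 libraries. The spread within groups differed widely between members. On chow the pooled standard deviation of log2 CPM within groups was 3.43 for Nts, the 20th largest of 19688 genes, 1.86 for Insl5, 1.44 for Sct and 1.25 for Cck. It was 0.37 for Gcg, equal to the median of all genes, 0.37. On HFD it was 2.87 for Nts, 2.32 for Insl5 and 0.36 for Gcg, with a median of 0.32.

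The chromogranins Chga and Chgb, acidic proteins that pack hormones into granules and mark most endocrine cells, were abundant in every library. Chga (ENSMUSG00000021194, chr12:102521228-102531287, mm39, plus strand) was at 39.9, 98.9, 74.9 and 55.4 CPM in chow ff replicates 1 to 4. It was at 144, 83.6, 83.7 and 37.5 CPM in chow Vill, and at 56.4, 65.8, 64.3 and 47.9 CPM in chow Alb. On HFD it was at 121, 83.04, 146 and 50.9 CPM in ff and at 60.3, 64.1, 73.0 and 45.6 CPM in Vill. The groups overlapped in every comparison, and Chga was highest in HFD ff 3 and chow Vill 1, a pair of the 5 libraries with high proximal markers. Chgb (ENSMUSG00000027350, chr2:132623198-132636999, plus strand) ranged from 66.1 CPM in chow Vill 4 to 245 CPM in HFD ff 3, the same 2 ends as Chga. Chgb was at 102 to 245 CPM in the 5 libraries and at 66.1 to 130.2 CPM in the other 15.

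Gcg (ENSMUSG00000000394, chr2:62304874-62313994, minus strand), whose transcript gives the glucagon-like peptides in L cells, was the steadiest hormone among the members. It was at 28.9, 23.5, 37.3 and 23.1 CPM in chow ff, at 49.9, 32.3, 34.8 and 21.9 CPM in chow Vill, and at 20.6, 21.4, 23.6 and 31.0 CPM in chow Alb. On HFD it was at 48.3, 72.1, 40.8 and 75.7 CPM in ff and at 50.2, 67.7, 46.9 and 66.9 CPM in Vill. The 8 HFD libraries thus lay at 40.8 to 75.7 CPM and the 12 chow libraries at 20.6 to 49.9 CPM, and only chow Vill 1 reached into the HFD range.

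Pyy (ENSMUSG00000017311, chr11:101997502-101998658, minus strand), a peptide that slows gut transit and reduces appetite, was at 20.4 CPM in chow Alb 3 and at 99.6 CPM in chow Vill 3, its lowest and highest libraries. Its group means were 49.3 ± 21.5 CPM in chow ff, 57.8 ± 32.5 in chow Vill, 40.2 ± 22.3 in chow Alb, 48.7 ± 19.6 in HFD ff and 52.8 ± 23.1 in HFD Vill (SD, n = 4 each). These means differed by less than their SDs.

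Insl5 (ENSMUSG00000066090, chr4:102875069-102884039, minus strand), an insulin-like peptide of colonic L cells that acts through the receptor Rxfp4, varied 104-fold over the 20 libraries. It was at 45.2, 8.19, 71.0 and 93.3 CPM in chow ff, at 4.56, 99.8, 127 and 27.9 CPM in chow Vill, and at 10.5, 72.2, 7.41 and 74.4 CPM in chow Alb. On HFD it was at 1.23, 127, 3.65 and 63.2 CPM in ff and at 26.7, 50.6, 99.3 and 64.0 CPM in Vill. The 5 libraries with high proximal markers held its 5 lowest levels, 1.23 to 8.19 CPM, and the other 15 were at 10.5 to 127 CPM. Rxfp4 itself was at most at 0.375 CPM in any library.

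Nts (ENSMUSG00000019890, chr10:102317617-102326347, minus strand) encodes neurotensin, a peptide of N cells that are most frequent in the ileum. It was at 0.554, 32.7, 0.0875 and 0.0573 CPM in chow ff, at 40.3, 0.397, 0 and 2.16 CPM in chow Vill, and at 0.42, 0.0519, 7.89 and 0.35 CPM in chow Alb. On HFD it was at 47.7, 0.155, 33.4 and 0.467 CPM in ff and at 1.34, 0.46, 0.418 and 0.499 CPM in Vill. It was thus at 7.89 to 47.7 CPM in the 5 libraries with high proximal markers and at 0 to 2.16 CPM in the other 15. Chow Vill 3 had 0 Nts reads of 40.4 M, and with 3 reads set in its place Nts was at least 573-fold higher in chow Vill 1 (counting error only). A group mean of Nts describes no library well where levels differ so widely within a group. On chow the levels were graded, with Alb 3 at 7.89 CPM and Vill 4 at 2.16 CPM between the ends.

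Sct (ENSMUSG00000038580, chr7:140858243-140859046, minus strand), which encodes secretin, a stimulus of bicarbonate secretion, followed the same libraries. It was at 3.09, 17.8, 3.47 and 1.98 CPM in chow ff, at 19.5, 2.58, 1.43 and 6.13 CPM in chow Vill, and at 3.81, 1.30, 10.2 and 1.59 CPM in chow Alb. On HFD it was at 12.3, 1.52, 17.2 and 3.32 CPM in ff and at 2.89, 3.31, 0.993 and 2.22 CPM in Vill. The 5 libraries held its 5 highest levels, 10.2 to 19.5 CPM, and the other 15 were at 0.993 to 6.13 CPM. Cck (ENSMUSG00000032532, chr9:121318890-121324760, minus strand), a peptide of I cells that empties the gall bladder, was low throughout, at 0.141 to 2.80 CPM, from 6 to 65 reads a library, and its 5 values in those libraries, 1.23 to 2.10 CPM, lay inside the range of the other 15.

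Tph1 (ENSMUSG00000040046, chr7:46294065-46321961, minus strand), which makes the first step of serotonin synthesis in enterochromaffin cells, was at 11.1 to 39.0 CPM, with its highest level in chow ff 2 and its lowest in chow ff 1. Neurod1 (ENSMUSG00000034701, chr2:79282865-79287095, minus strand) was at 1.26 to 5.58 CPM, from 36 to 166 reads a library. Its gene model overlaps that of Cerkl on the same strand, and Cerkl had 3 to 27 reads a library.

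**Figure D2:**
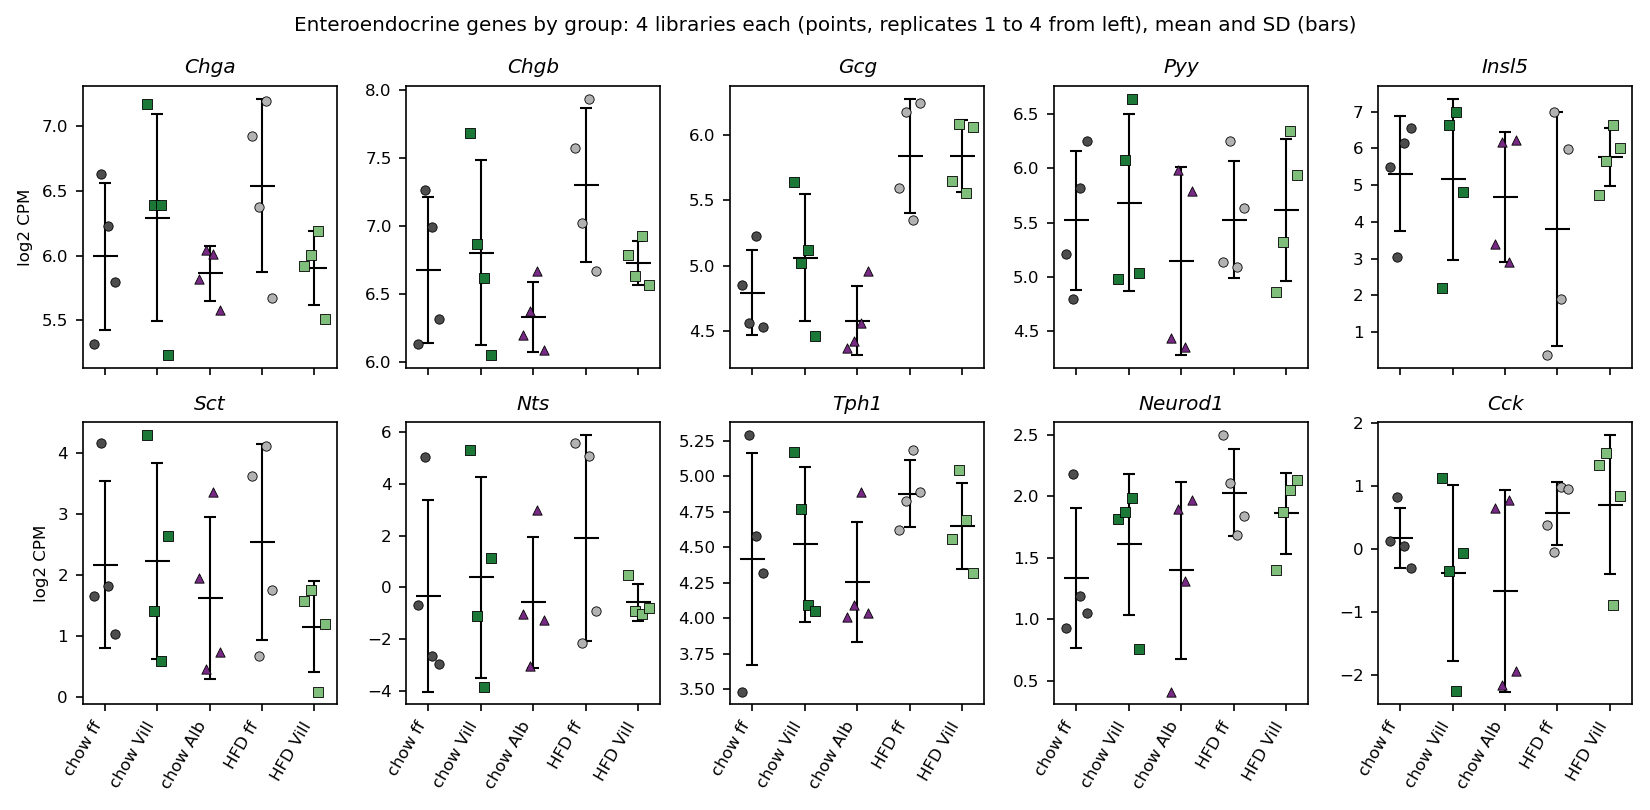
Level of each member in the 5 groups as log2 CPM (2 counts added before the logarithm), with 1 point per library and bars for the mean and SD of 4. Nts, Insl5 and Sct spread over several log2 units within most groups, while Gcg lies higher in both HFD groups (40.8 to 75.7 CPM) than in the chow groups (20.6 to 49.9 CPM).

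Deletion of Pcca in the intestinal epithelium was compared with ff on chow. None of the 10 members was called by edgeR's quasi-likelihood test at an adjusted p under 0.05, none had an unadjusted p under 0.05, and DESeq2 and limma-voom called none either. The same test called 0.00508% of 19701 genes, and 374 had an unadjusted p under 0.05. 9 members were higher and 1 was lower in Vill, with a median log2 fold change of 0.24 against 0.00 for all genes. The log2 fold change was 0.37 for Chga (95% interval -0.40 to 1.14), 0.30 for Gcg (-0.22 to 0.83) and 0.23 for Pyy (-0.82 to 1.28). For Insl5 it was 0.25 (-1.91 to 2.42) and for Nts 0.36 (-4.07 to 4.80), intervals that leave room for differences of several fold in either direction. No member had groups that did not overlap, as 1.35% of all genes tested did. Without chow Vill 1 the value for Nts was -3.36, and without chow ff 2 it was 5.49. The proximal colon list was higher in Vill for 6 of 7 genes (median log2 fold change 0.78) and the distal colon list for 6 of 7 (median 0.55), and the smooth muscle list was lower for 10 of 10 (median -0.51) and the neuron and glia list for 13 of 14 (median -0.26), none called, and their part in the members' values was not tested.

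Deletion in the liver gave the same count on chow. For Alb against ff, no member was called, none had an unadjusted p under 0.05, DESeq2 and limma-voom called none of them, and edgeR called 0% of 19701 genes. Of all genes 867 had an unadjusted p under 0.05, DESeq2 called 11 genes and limma-voom called 0. 9 members were lower and 1 was higher in Alb, with a median log2 fold change of -0.32 against 0.00 for all genes. Chgb differed by -0.40 (-1.13 to 0.32), Gcg by -0.22 (-0.75 to 0.30) and Nts by -1.95 (-6.60 to 2.71) on the log2 scale. No member had groups that did not overlap, against 2.82% of all genes. Nts was at 3.21 without chow ff 2 and at -4.97 without chow Alb 3. Markers were higher in Alb for 7 of 7 distal colon genes (median 0.72), 13 of 14 neuron and glia genes (median 0.51) and 10 of 10 smooth muscle genes (median 0.37), none called, and their part was not tested.

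The 2 knockouts were then compared with each other. All 10 members were higher in Vill than in Alb, with a median log2 fold change of 0.55 against 0.02 for all genes, but none was called, and 0.00508% of all genes were. Gcg was the only member with an unadjusted p under 0.05, at a log2 fold change of 0.53 (95% interval 0.00 to 1.05, p = 0.0496 and adjusted p = 0.562 by edgeR), and its exact permutation p over 70 assignments of the libraries was 0.114 (2-sided). Of 19701 genes 1748 had an unadjusted p under 0.05 by edgeR. DESeq2 and limma-voom called no member. No member had groups that did not overlap, against 4.71% of all genes. The 3 chow comparisons share their libraries in pairs, so the directions in them are not separate evidence. Smooth muscle and neuron markers moved with this comparison: all 10 smooth muscle genes and 13 of 14 neuron and glia genes were lower in Vill than in Alb, with median log2 fold changes of -0.85 and -0.89 and none called. The proximal colon list was higher in Vill for 6 of 7 genes (median 1.04) and the distal colon list lower for 7 of 7 (median -0.20), none called. The summed smooth muscle level was 1155 to 7395 CPM in chow Vill, 4950 to 12717 CPM in chow Alb and 4482 to 9222 CPM in chow ff, and the summed neuron and glia level was 46.4 to 270 CPM, 171 to 382 CPM and 122 to 273 CPM. Their part in the members' values was not tested.

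On HFD the members with the largest fitted differences between Vill and ff were those that were high in ff 1 and 3. No member was called by edgeR, DESeq2 or limma-voom, and 0.00564% of 17715 genes were called by edgeR. 7 members were lower and 3 higher in Vill, with a median log2 fold change of -0.22 against 0.00 for all genes. Of all 17715 genes 612 had an unadjusted p under 0.05, and of the members 4 did. These were Nts at -4.95 (95% interval -8.55 to -1.35), Sct at -1.90 (-3.57 to -0.22), Chga at -0.74 (-1.45 to -0.04) and Chgb at -0.67 (-1.27 to -0.07), each with an adjusted p of 0.932 by edgeR. Exact permutation over 70 assignments, whose smallest p is 0.0286, gave 2-sided p-values of 0.371, 0.2, 0.171 and 0.114 for them. No member had groups that did not overlap, against 2.13% of all genes. The proximal colon list was lower in Vill for 5 of 6 genes tested (median -2.16) and the distal colon list higher for 5 of 6 (median 0.83), none called, while epithelial markers were higher for 13 of 14 genes (median 0.20, none called). With the proximal colon list as a covariate, a setting added after the data were seen, the 4 values were 1.00, 0.04, -0.21 and -0.16. Without both ff 1 and 3 they were 1.14, -0.02, -0.13 and -0.11, none called in either fit. The libraries high on this list were both ff, so the list and the label cannot be told apart here. Leaving out ff 1 and 3, where all 4 members were highest, lowers the ff levels by construction. The part of the list in the members' values was not tested. Insl5, low in those 2 libraries and high in ff 2, stood at 0.30 (-2.20 to 2.81) with all 8 libraries and at -0.65 without them, and the difference of its mean log2 levels was 1.95 (exact permutation p = 0.371). Gcg (-0.04, -0.52 to 0.43) and Tph1 (-0.23, -0.64 to 0.18) had narrower intervals.

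The difference between the Vill effects on the 2 diets was tested in a fit of 16 libraries. No member was called, none had an unadjusted p under 0.05, and edgeR called 0% of 19516 genes. Of all genes 496 had an unadjusted p under 0.05, and DESeq2 and limma-voom called 0. The values were -1.11 (-2.27 to 0.05) for Chga, -2.05 (-4.78 to 0.67) for Sct, -5.30 (-11.51 to 0.91) for Nts and -0.34 (-1.09 to 0.40) for Gcg. Without HFD ff 1 and 3 that of Nts was 0.77.

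**Figure D3:**
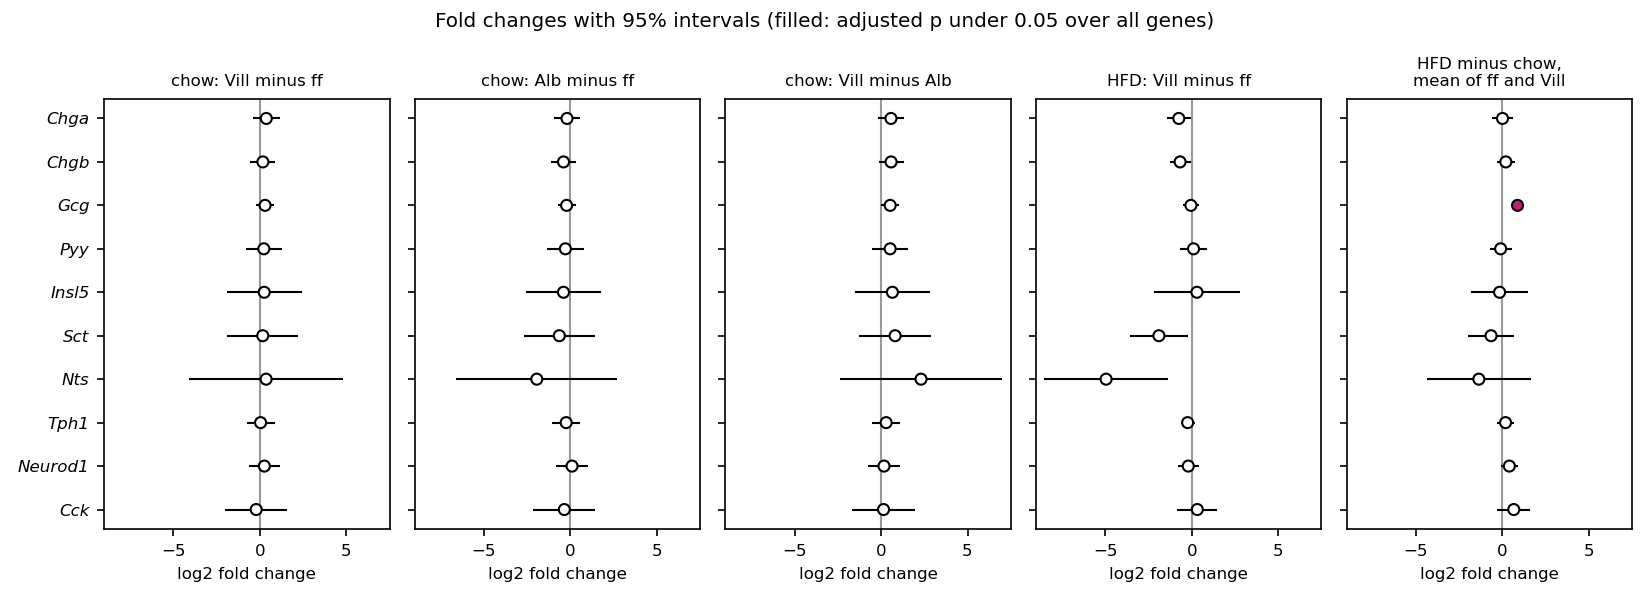
Log2 fold change of each member (points) with its 95% interval (lines) in 4 genotype comparisons and between the diets. The intervals of Nts, Insl5 and Sct are the widest, and the filled point, Gcg between the diets at 0.88 (0.51 to 1.26), is the only value with an adjusted p under 0.05.

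Gcg was higher on HFD than on chow. Over the ff and Vill animals it averaged 58.6 ± 13.4 CPM on HFD and 31.5 ± 9.39 CPM on chow (SD, n = 8 each), a log2 fold change of 0.88 ± 0.18 (SE; 95% interval 0.51 to 1.26), or 1.84-fold, with an adjusted p of 0.00229 by edgeR. 7 of the 8 chow libraries lay below every HFD library. No other member was called, and 26.6% of 19516 genes were called between the diets, so 1 of 10 is not a large share. Gcg was called under each of 26 alternatives, with log2 fold changes of 0.80 to 1.12 and adjusted p-values of 2.22e-05 to 0.00775. Without chow ff 2 and Vill 1 and HFD ff 1 and 3 it was 1.12. Chga (0.01, -0.57 to 0.59), Chgb (0.20, -0.31 to 0.72), Pyy (-0.10, -0.74 to 0.54) and Tph1 (0.19, -0.30 to 0.68) had intervals on both sides of 0. So did Cck (0.66, -0.28 to 1.61), Neurod1 (0.41, -0.10 to 0.91), Sct (-0.65, adjusted p = 0.489 by edgeR), Insl5 (-0.16, -1.83 to 1.51) and Nts (-1.36, -4.37 to 1.65). With the proximal colon list as a covariate Insl5 was at -0.85 (adjusted p = 0.0282), and with the small intestine list as a covariate Sct was at -0.80 (adjusted p = 0.0293), both by edgeR and both below the threshold. No member had groups that did not overlap, against 5.97% of all genes. Diet, age, named sex, depth and the count table all differ between these libraries and cannot be told apart. The distal colon list was lower on HFD for 7 of 7 genes (median log2 fold change -0.92, 1 called), and Gcg was at 0.86 with the proximal colon list as a covariate. Epithelial markers were lower on HFD for 13 of 14 genes (median log2 fold change -0.19, 2 called) and smooth muscle markers for 9 of 10 (median -0.66, none called), and their part in the Gcg difference was not tested.

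The members did not all rise and fall together across the chow libraries, which are bulk samples and do not show single cells. Over the 12 chow libraries, 14 of the 45 pairs of members had a permutation p under 0.05 for Pearson's r after adjustment over the 45 pairs (100000 resamples), 8 with a positive and 6 with a negative sign, and all 14 were also called with deviations from the group means. Chow ff 2, Vill 1 and Alb 3 stood above the other 9 on the proximal list and for Nts, so each value is followed by that over the 9. Over those 9 libraries 13 of the 14 pairs kept their sign, 10 had an unadjusted p under 0.05 and 3 an adjusted one. The 9 libraries were chosen after the data were seen.

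Chga and Chgb had Pearson's r = 0.94 (permutation p = 1e-05, adjusted p = 0.00045) and Spearman's rho = 0.92 (p = 9e-05, adjusted p = 0.00108), with r = 0.89 less the 2 libraries farthest from the median, and r = 0.87 over the 9 libraries. A p of 1e-05 is the smallest that these resamples can give. Insl5 and Pyy had r = 0.90 (permutation p = 6e-05, adjusted p = 0.0009) and Spearman's rho = 0.92 (p = 5e-05, adjusted p = 0.00108), with r = 0.87 less the 2 libraries farthest from the median, and 0.97 over the 9. Sct and Cck had r = 0.84 (permutation p = 0.00138, adjusted p = 0.00887) and Spearman's rho = 0.94 (p = 5e-05, adjusted p = 0.00108), with r = 0.84 less the 2 libraries farthest from the median and again 0.84 over the 9. These 3 pairs were called over both sets of libraries.

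Chgb and Tph1 had r = 0.87 (permutation p = 0.00021, adjusted p = 0.00216) and Spearman's rho = 0.87 (p = 0.00036, adjusted p = 0.00231), with r = 0.77 less the 2 libraries farthest from the median, and 0.78 over the 9, not called there. Insl5 ran against Sct at r = -0.90 (permutation p = 0.00024, adjusted p = 0.00216) and Spearman's rho = -0.88 (p = 0.00037, adjusted p = 0.00231), with r = -0.82 less the 2 libraries farthest from the median, and at -0.67 over the 9. For Nts, r over the 12 libraries was 0.95 with Sct, 0.72 with Cck, -0.74 with Pyy and -0.88 with Insl5, each called after adjustment. The 12 libraries include chow ff 2, Vill 1 and Alb 3, the highest in Nts on chow. Within the 9 libraries r was 0.77 with Sct, 0.53 with Cck, -0.74 with Pyy and -0.61 with Insl5, none called after adjustment. Sct and Tph1 rested on the high libraries, with r = 0.71 over 12 libraries, 0.35 without chow Vill 1 and ff 2, and -0.03 over the 9. Gcg was called with no other member, and its values with Insl5 and Pyy were 0.03 and 0.28 over 12 libraries and 0.62 and 0.52 over the 9. Neurod1 was called with Insl5 (0.81) and against Cck (-0.86) over the 9 only, where over 12 libraries r was 0.13 and -0.40. On HFD, ff 1 and 3 form a cluster apart from the other 6 libraries, and no pooled value is given.

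**Figure D4:**
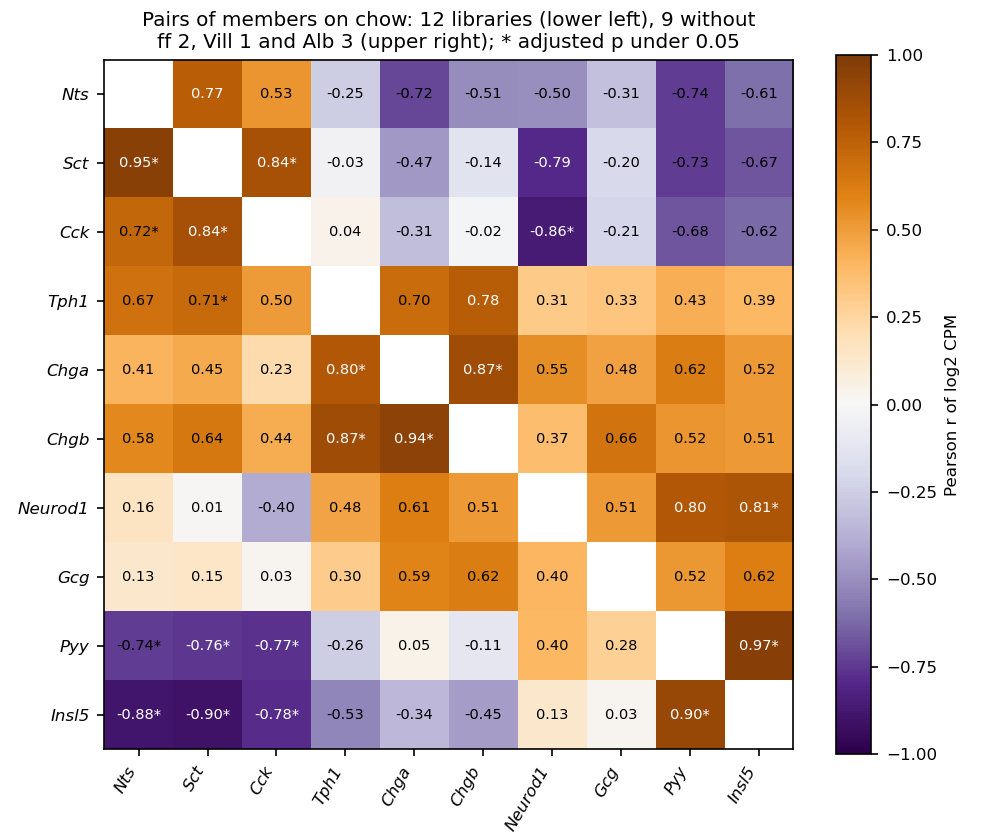
Pearson's r of log2 CPM for each pair of members on chow, over 12 libraries below the diagonal and over 9 above it. Insl5 with Pyy (0.90 and 0.97), Chga with Chgb (0.94 and 0.87) and Sct with Cck (0.84 and 0.84) are starred on both sides of the diagonal.

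The same levels were set against the tissue lists over the 12 chow libraries, 50 relations with 5 lists and 10 with the proximal colon list, which was added after the data were seen. Sct rose with the small intestine list at r = 0.95 (permutation p = 1e-05, adjusted p = 0.00025) and Spearman's rho = 0.94 (p = 2e-05, adjusted p = 0.0005), with r = 0.95 less the 2 libraries farthest from the median, and with the epithelium list at r = 0.94 (permutation p = 1e-05, adjusted p = 0.00025) and Spearman's rho = 0.97 (p = 1e-05, adjusted p = 0.0005), with r = 0.93 less the 2 libraries farthest from the median, and both were called over the 9 libraries too (0.91 and 0.96). Cck fell as the distal colon list rose, at r = -0.84 (permutation p = 0.00107, adjusted p = 0.00412) and Spearman's rho = -0.93 (p = 5e-05, adjusted p = 0.000833), with r = -0.82 less the 2 libraries farthest from the median, and at -0.78 over the 9, called in both. Pyy was lower where the smooth muscle list was higher, at r = -0.85 (permutation p = 3e-05, adjusted p = 0.0005) and Spearman's rho = -0.84 (p = 0.00093, adjusted p = 0.00387), with r = -0.82 less the 2 libraries farthest from the median, and where the neuron and glia list was higher, at r = -0.84 (permutation p = 0.00034, adjusted p = 0.00236) and Spearman's rho = -0.72 (p = 0.0095, adjusted p = 0.0264), with r = -0.72 less the 2 libraries farthest from the median, with -0.83 and -0.87 over the 9. Insl5 rose with the distal colon list at r = 0.89 (permutation p = 0.00024, adjusted p = 0.002) and Spearman's rho = 0.82 (p = 0.00204, adjusted p = 0.00785), with r = 0.78 less the 2 libraries farthest from the median, and at 0.65 over the 9, not called there. With the proximal colon list, Insl5 had r = -0.89 and Sct 0.94 over 12 libraries, and -0.66 and 0.71 over the 9, neither called there. Gcg was called with the neuron and glia list alone, at r = -0.67 (permutation p = 0.017, adjusted p = 0.0387) and Spearman's rho = -0.81 (p = 0.00235, adjusted p = 0.00839), with r = -0.67 less the 2 libraries farthest from the median, and at -0.74 over the 9. Its value with the proximal colon list was 0.24. Pyy and Insl5 were also lower where the epithelium list was higher, at r = -0.83 (permutation p = 0.00149, adjusted p = 0.00532) and -0.87 (permutation p = 0.00044, adjusted p = 0.00236). Over the 9 libraries these were -0.79 and -0.75, not called there. Nts and Cck rose with the epithelium list over the 12 libraries, at r = 0.88 and 0.84, both called. These lists share libraries and move with each other, so no relation is particular to a single list.

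**Figure D5:**
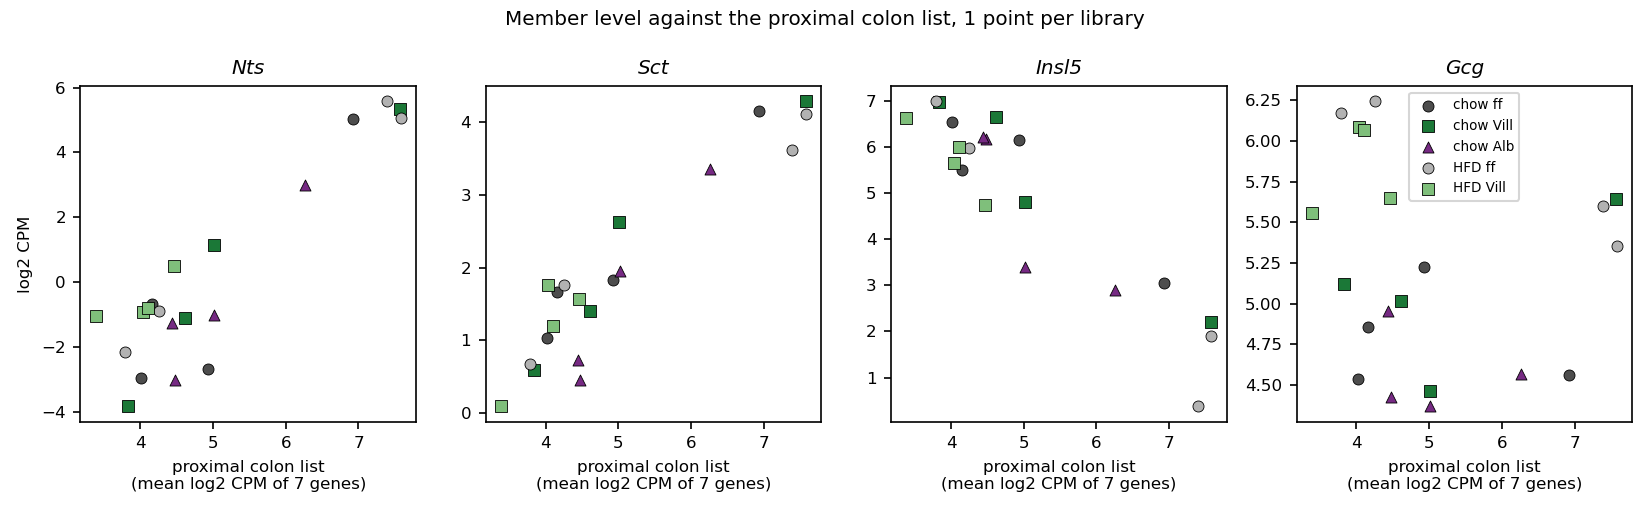
Level of Nts, Sct, Insl5 and Gcg (log2 CPM) against the mean log2 CPM of the 7 proximal colon genes, with 1 point per library of all 5 groups. The 5 libraries at 6.26 or more on the list hold the highest Nts and Sct and the lowest Insl5, while Gcg, at 40.8 to 75.7 CPM on HFD and 20.6 to 49.9 CPM on chow, had r = 0.24 with the list over the 12 chow libraries.

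Among 15741 genes with a mean of at least 1 CPM, the patterns most like that of a member over the 12 chow libraries were, as a description, the following. For Chga these were Chgb (r = 0.94), Ndufaf1 (0.92) and Naaladl1 (0.91). For Gcg they were Gm10145 (0.93), Ppif (0.92) and Slc7a7 (0.91). For Insl5 they were Rdh18-ps, Eno3 and Slc28a3 (0.98 each). For Cck they were Matk (0.94), Tle1 (0.94) and Mgat4c (0.93), and for Nts they were Prap1 (0.98), Hoxb6 (0.96) and Slc51a (0.96). Nts falls into separate sets on chow, so these Nts values cannot be read apart from the gap between the sets. Hoxb6 is also on the proximal colon list by which the libraries high in Nts were picked. Values of r within a set were not taken for these genes.

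Of the other genes of the endocrine pathway, none was called in a genotype comparison or in the difference between diets. Among 22 endocrine lineage transcription factors 20 were tested on chow, of which 18 were higher in Vill than in ff (median log2 fold change 0.26, none called). Among those at a mean of 1 CPM or more, the largest values were for Lmx1a, a factor of enterochromaffin cells, 0.42, and for Insm1, a repressor that acts in endocrine precursors, 0.38. For Vill against ff on HFD these factors went in both directions, with Lmx1a at 0.16 and Insm1 at -0.02. Between the diets 20 were tested, and Gfi1, a repressor that acts in the secretory lineage and is not confined to endocrine cells, fell by 0.72 on the log2 scale on HFD (adjusted p = 0.0077 by edgeR), 1 of 20 where 26.6% of all genes were called.

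Of 20 genes of hormone processing and the granule, Chga and Chgb among them, 18 were lower in Vill than in ff on HFD (median log2 fold change -0.72, none called). The convertase Pcsk1, which cuts proglucagon, was at -0.90 and the granule protein Scg3 at -1.19. The mean log2 CPM of the 18 genes of the list other than Chga and Chgb was 4.64 and 4.11 in HFD ff 1 and 3 and 3.31 and 3.33 in ff 2 and 4, and it was 2.02 in Vill 4 and 3.24 to 3.79 in the other Vill libraries. Pcsk1 was at 29.1 to 52.4 CPM in the 5 libraries with high proximal markers and at 4.83 to 28.9 CPM in the other 15. Between the diets 2 of the 20 fell and none rose, a smaller share than the 26.6% called over all genes: Pcsk1n, an inhibitor of the convertase, by 1.10, and Pam, which amidates peptide hormones, by 0.46 on the log2 scale (adjusted p = 0.00869 and 0.0134 by edgeR). Many of these genes are also expressed by enteric neurons, of whose 14 markers 13 were lower in Vill than in ff on HFD (median -0.72), with a summed level of 20.6 to 210 CPM in Vill and 120 to 318 CPM in ff. That part in the granule genes' values was not tested.

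All 8 genes of serotonin synthesis and handling were tested, and none was called in any comparison. The serotonin transporter Slc6a4 was at -0.73 and the vesicle transporter Slc18a2 at 0.57 between the diets. Of 16 nutrient and microbial sensors in the tables, 14 were tested between the diets and 4 fell on HFD, a share near the 26.6% called over all genes, while none rose: the bile acid receptor Gpbar1 by 1.95, Tlr9 by 1.96, the irritant channel Trpa1 by 1.24 and the lactate receptor Hcar1 by 0.74 on the log2 scale (adjusted p = 0.00109, 0.018, 0.00747 and 0.0269 by edgeR). All 4 were scarce, with means of 0.197 to 0.993 CPM over the 8 HFD libraries. Of 20 receptors for the hormones 15 were tested between the diets with none called, and Glp2r, the receptor for a product of Gcg, was at -0.58 (adjusted p = 0.0569 by edgeR).

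Among 10 other gut hormones and peptides, 5 were tested between Vill and ff on HFD, of which 4 were lower and none was called. Sst, the somatostatin gene of D cells, was at -2.14 and Gal, the galanin gene, which enteric neurons also express, at -1.97 on the log2 scale (adjusted p = 0.932 for each by edgeR). Of 11 mast cell genes, listed because mast cells can also express Tph1, 6 were tested between the diets and none was called there or in a genotype comparison, and their summed level was 60.2 to 127 CPM over all libraries. Of 21 small intestine genes 17 were tested on HFD, of which 14 were lower in Vill than in ff (median log2 fold change -0.49, none called), and between the diets 2 of 17 rose and 2 fell on HFD, near the 26.6% called over all genes. Of the 14 pancreatic genes 2 were tested and none was called in any comparison.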

How the data were processed

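RNA from 20 mouse colon pieces was counted by the authors, and the deposited tables hold raw read counts per gene, per the file headers. Tools listed in the submitters' processing notes are featureCounts (version 1.5.0-p3), the aligner HISAT2 (version 2.0.5), edgeR (version 3.22.5) and DESeq2 (version 1.20.0), with the build mm39. The annotation release and strand setting are not given in the sources used here. Gene lengths come from the same deposited tables. The authors' deposited tables also give log2 fold changes and p-values per comparison. In the authors' deposited table no member had an adjusted p under 0.05, and that of Nts on HFD was 0.674. 28 further per-sample columns were not used.

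Counts were tested with edgeR 4.0.16 (R 4.3.3; TMM, filterByExpr, quasi-likelihood F test), with 12 chow, 8 HFD or 16 ff and Vill libraries in a fit, and p adjusted by Benjamini and Hochberg over all genes tested. Alternatives used limma-voom (package version 3.58.1) or DESeq2 (version 1.42.0), and the edgeR step was tested on simulated data. Log2 CPM have 2 counts added. Depth was 16.9 to 40.4 M reads, and members had 0 (Nts) to 6357 (Chgb) reads a library. Groups came from the titles and replicates were 4 a group; the labels do not say that numbers pair animals or that each library is a separate animal, so p-values measure the spread between these samples. No 2 libraries were identical. The text names all 10 members, called genes and up to 4 of the largest log2 fold changes (mean of 1 CPM or more) of a list, Pcca, and for 5 members the 3 genes of highest r. Gpbar1 was named as a called gene. The position markers named beside the 5 libraries that stand apart were chosen after their values were seen. Members and the 14 gene lists were chosen with earlier results of these data known.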

Additional observations from a re-analysis of the deposited data

Results flagged for a closer look

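Each member's 4 levels (CPM) in each of 5 groups were screened for a library far from the other 3. A library was flagged if its gap to the nearest, over the whole range, was above Dixon's 95% critical value. Such a screen flags about 1 group in 20 by chance where levels are normally distributed, which was not checked for CPM. All members were measured in the same libraries, so the count of flags cannot be set against that rate. 7 of 50 groups were flagged, and 6 of the 7 were in chow ff 2, Vill 1 or Alb 3, which were high on the proximal colon list. Nts was at 32.7 CPM in chow ff 2 where the nearest library was at 0.554, at 40.3 CPM in chow Vill 1 where the nearest was at 2.16, and at 7.89 CPM in chow Alb 3 where the nearest was at 0.42. On HFD, Nts was at 1.34 CPM in Vill 1 where the nearest was at 0.499. Sct was at 17.8 CPM in chow ff 2 where the nearest was at 3.47, and Neurod1 was at 4.46 CPM in the same library where the nearest was at 2.22. Tph1 was at 29.5 CPM in chow Alb 3 where the nearest was at 17.0.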

How the results depend on the processing

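Gcg between the diets was called under all 26 alternatives, and no member was called in a genotype comparison under any. Of 1069 member fold changes under alternatives 967 kept their direction and side of the threshold, 100 changed sign, none of these called, and 2 became called (HFD against chow: Insl5 -0.85 with the proximal colon list and Sct -0.80 with the small intestine list as a covariate). The cause of these changes was not tested. For the difference between the Vill effects on the 2 diets, these counts hold only Chga, Gcg, Sct and Nts, and the other members were left out. Replicate numbers did not pair the samples (correlations of same-numbered deviations -0.68 to 0.60), and with a replicate block no genes were called for Vill against ff or against Alb on chow (0 and 0), while Gcg between the diets stayed called. DESeq2 called 3, 11 and 90 genes in the chow comparisons (Vill against ff, Alb against ff, Vill against Alb) and 2 on HFD. Without an expression filter 2 genes were called for Vill against ff on chow, without chow ff 2, Vill 1 and Alb 3 none (0), and for HFD Vill against ff 2 with the proximal colon list as a covariate and 2 without HFD ff 1 and 3. The cause was not tested.

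Values that changed sign follow, for the difference between diets only those of Chga, Gcg, Sct and Nts. With limma-voom, the log2 values were for Vill against ff on chow Insl5 -0.0608 and Sct -0.0496 and for HFD against chow Nts 1.21. With the replicate block, the log2 values were for Vill against ff on chow Insl5 -0.29 and for Alb against ff on chow Nts 0.71. With the small intestine list as covariate, the log2 values were for Vill against ff on chow Insl5 -0.39, for Alb against ff on chow Sct 0.0832 and Nts 1.34, for Vill against Alb on chow Nts -0.0254 and Cck -0.21, for Vill against ff on HFD Pyy -0.16 and Insl5 -0.12 and for HFD against chow Chga -0.14, Pyy 0.15 and Insl5 0.49. With the proximal colon list as covariate, the log2 values were for Vill against ff on chow Sct -0.17 and Nts -0.0235, for Vill against Alb on chow Cck -0.14, for Vill against ff on HFD Pyy -0.37, Insl5 -0.73, Sct 0.043 and Nts 1.00, for the difference between diets Sct 0.35 and Nts 1.58 and for HFD against chow Nts 0.74. Without chow ff 2, Vill 1 and Alb 3, the log2 values were for Vill against ff on chow Gcg -0.0124, for Alb against ff on chow Chga 0.0119 and Nts 0.21 and for Vill against Alb on chow Cck -0.0939. Without both HFD ff 1 and 3, the log2 values were for Vill against ff on HFD Pyy -0.24, Insl5 -0.65 and Nts 1.14, for the difference between diets Nts 0.77 and for HFD against chow Chga -0.29, Chgb -0.0651, Pyy 0.0831 and Insl5 0.32. Without chow ff 2 and Vill 1, HFD ff 1 and 3, the log2 values were for HFD against chow Nts 0.0302. With deviations from group means, r was -0.058 for Chga/Pyy, -0.0362 for Gcg/Insl5, -0.0181 for Gcg/Cck and -0.00894 for Sct/Neurod1. Without chow ff 2, Vill 1 and Alb 3, r was 0.52 for Chga/Insl5, -0.47 for Chga/Sct, -0.72 for Chga/Nts, -0.31 for Chga/Cck, 0.52 for Chgb/Pyy, 0.51 for Chgb/Insl5, -0.14 for Chgb/Sct, -0.51 for Chgb/Nts, -0.0189 for Chgb/Cck, -0.20 for Gcg/Sct, -0.31 for Gcg/Nts, -0.21 for Gcg/Cck, 0.43 for Pyy/Tph1, 0.39 for Insl5/Tph1, -0.0318 for Sct/Tph1, -0.79 for Sct/Neurod1, -0.25 for Nts/Tph1 and -0.50 for Nts/Neurod1. With each library left out in turn, the log2 ranges of values that changed sign were for Vill against ff on chow Sct -0.98 to 1.38, Nts -3.36 to 5.49, Tph1 -0.23 to 0.40, Insl5 -0.30 to 0.63, Cck -0.95 to 0.15, Chgb -0.22 to 0.39 and Pyy -0.16 to 0.50; for Alb against ff on chow Neurod1 -0.0955 to 0.48, Chga -0.38 to 0.0631, Sct -1.57 to 0.58, Nts -4.97 to 3.21, Tph1 -0.51 to 0.13, Pyy -0.59 to 0.00026 and Cck -0.86 to 0.00888; for Vill against Alb on chow Sct -0.34 to 1.72, Nts -1.41 to 5.30, Cck -0.60 to 0.64 and Neurod1 -0.0708 to 0.36; for Vill against ff on HFD Pyy -0.18 to 0.41, Insl5 -0.10 to 1.41 and Gcg -0.19 to 0.0882; for HFD against chow Chga -0.12 to 0.18, Nts -1.76 to 1.21, Pyy -0.24 to 0.11 and Insl5 -0.71 to 0.12. The low counts of Nts, 0 to 56 reads in 15 libraries, and of Cck limit what their intervals can show.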

Other observations

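Levels of other hormone genes in the 5 libraries high in proximal markers and in the other 15 are given for genes chosen after their values were seen. Sst, the somatostatin of D cells, was at 28.2 to 106 CPM in the 5 and at 2.82 to 44.6 CPM in the 15. Ppy, the pancreatic polypeptide gene and a close relative of Pyy, was at 1.31 to 2.13 CPM in the 5 and at 1.57 to 8.55 CPM in the 15, so both genes overlapped between the sets. Gip, the hormone of upper intestinal K cells, was at or near 0 in both.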
